A study of Mus musculus with 180 samples.

Results

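The genes described here are those of antigen presentation by MHC class II. They were chosen by name in the deposited table, as *H2-Aa*, *H2-Ab1*, *H2-Eb1*, *Cd74*, *H2-DMa*, *H2-DMb1* and *Ciita*, and are 7 of the 45070 genes listed there. The data are RNA-seq values of bone marrow-derived macrophages (BMDMs), which are grown in culture from the bone marrow of mice. All cells were wild type, and the marrow came from male C57/BL6 mice aged 6 to 8 weeks. Before stimulation, they were exposed for 1 h to DMSO, the vehicle, or to 1 of 58 clinical kinase inhibitors (CKIs), and all of them then received 10 ng/mL of LPS, a component of the bacterial outer membrane, for 2 h. There were 3 samples for each CKI and 6 for DMSO, 180 in all, and no sample without LPS was analysed here. The DMSO samples carry the labels of 2 sets of 3, and the labels do not tie a set to any CKI, so both sets served as 1 reference. Each CKI was used at 1 concentration, which differed between CKIs, so single CKIs were not tested against each other. A test over all conditions and a test of a CKI against the mean of the others, given below, compare unlike doses.

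Class II molecules are pairs of an alpha and a beta chain that carry peptides from endosomes to the cell surface, where CD4 T cells read them. The invariant chain, encoded by *Cd74*, holds the binding groove of new class II molecules closed until proteases of the lysosome cut it down, and the DM heterodimer, encoded by *H2-DMa* and *H2-DMb1*, then exchanges the remaining fragment for a peptide. All of these genes are switched on together by the coactivator CIITA, which does not bind DNA itself but joins a complex of RFX, CREB and NF-Y factors on their promoters, and *Ciita* in turn is induced in macrophages by interferon-gamma through the kinases JAK1 and JAK2.

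The values are reads on exons, scaled by the authors on genes that varied little and rounded to whole numbers, and are called normalized values here. They summed to between 9477340 and 12273349 per sample. All 7 genes passed the filter of a mean of at least 10 over all samples, as did 12714 genes in all. The samples of every CKI were tested against those of DMSO with limma on log2(normalized value + 1), where changes of low genes appear smaller than they are, with Benjamini-Hochberg adjustment over the 12714 genes and a threshold of 0.05. The genes of this pathway lie at 3 places in mm10. *H2-DMa*, *H2-DMb1*, *H2-Ab1*, *H2-Aa* and *H2-Eb1* lie on chromosome 17 between 34122832 and 34316674, *Ciita* lies on the plus strand of chromosome 16 from 10480072 to 10527640, and *Cd74* lies on the plus strand of chromosome 18 from 60803849 to 60812652.

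The libraries carried the RNA of macrophages. All 8 macrophage markers examined passed the filter, with *Lyz2* the most abundant at a mean of 82018, and their summed value was 99709 to 216444 in the DMSO samples (median 115888). Of 8 dendritic cell markers 3 passed, led by *Xcr1* with a mean of 59.4, and their sum was 104 to 179 in the DMSO samples, while *Clec9a* had a mean of 1.93. Of 5 B cell markers 1 passed, *Cd79b* with a mean of 11.4. The B cell genes *Cd79a* and *Pax5* were listed at 0 in all 6 DMSO samples, and the B cell sum there was 1 to 21. None of the 4 T cell markers passed, their most abundant gene was *Cd4* with a mean of 8.02, and their sum was 2 to 21. Of 5 neutrophil markers 4 passed, led by *S100a8* with a mean of 258, and their sum was 185 to 526, while the defining marker *Ly6g* was listed at 0 in 111 of the 180 samples and reached at most 5.

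The DMSO samples spread widely in the class II genes. *H2-Aa* was at 717, 654 and 519 in replicates 1 to 3 of set 1 and at 1209, 389 and 736 in those of set 2. Replicate 1 of set 2 was the highest and replicate 2 of set 2 the lowest of the 6 in each of the 6 genes other than *Ciita*, and by the mean log2 value of these 6 genes replicate 2 of set 2 was the lowest of all 180 samples. The same order was seen in the share of transcripts encoded by the mitochondrial genome, a rough sign of how a library was made or of the state of the cells, which was highest in replicate 1 of set 2 (1.94%) and lowest in replicate 2 of set 2 (0.759%). The number of calls, and the calls of each gene, are therefore also given without replicate 2 of set 2. The order of the conditions and the number of positive fold changes are given with all 6 samples only.

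Compared per kilobase of transcript, the levels of the genes differed by more than 100-fold. In the DMSO samples *Cd74* was the highest at 2667 ± 892 per kilobase (SD, n = 6), followed by *H2-Ab1* at 874 ± 238, *H2-Aa* at 624 ± 248 and *H2-Eb1* at 336 ± 94.4. The DM genes were lower, with *H2-DMb1* at 190 ± 86.0 and *H2-DMa* at 92.3 ± 44.1, and *Ciita* was the lowest at 10.4 ± 2.05. In this order the ranges of mean ± SD of neighbouring genes overlapped, except between *Cd74* and *H2-Ab1* and between *H2-DMa* and *Ciita*.

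DMSO stood near the bottom of the 59 conditions. Ordered by the mean log2 value, the number of CKIs above DMSO was 54 of 58 for *H2-Aa* and *H2-Ab1*, 56 for *H2-Eb1* and *Ciita*, 51 for *Cd74*, 53 for *H2-DMa* and 55 for *H2-DMb1*. The order was otherwise a gradual one. In the 6 genes other than *Ciita*, none of the 58 steps from one condition to the next was larger than the SD between samples of a condition (0.36 to 0.51 on the log2 scale), so that neighbours did not differ beyond their spread. In *Ciita* 3 of the 58 steps were larger than its SD of 0.29. They set BGT226 above Omipalisib, Omipalisib above all remaining conditions, and Volasertib below them.

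Of the 406 pairs of a member and a CKI, 379 had a mean above DMSO, 30 passed the threshold as higher (7.39%) and 1 as lower (0.246%). Over all genes tested and all 58 CKIs, 2.52% of the pairs were higher and 1.65% lower. The 30 higher calls fell to 10 without replicate 2 of DMSO set 2 and to 19 without replicate 3 of DMSO set 1, rose to 54 without replicate 1 of DMSO set 2, and were 19 with both extreme samples of set 2 left out, a choice made after seeing the data. With replicate 1 left out of all conditions there were 32 higher calls, without replicate 2 there were 4 and without replicate 3 there were 7. With replicate 1 left out of the CKIs but kept in DMSO there were 5. The comparisons share the DMSO samples, so the calls of different CKIs are not independent of each other.

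**Figure D1:**
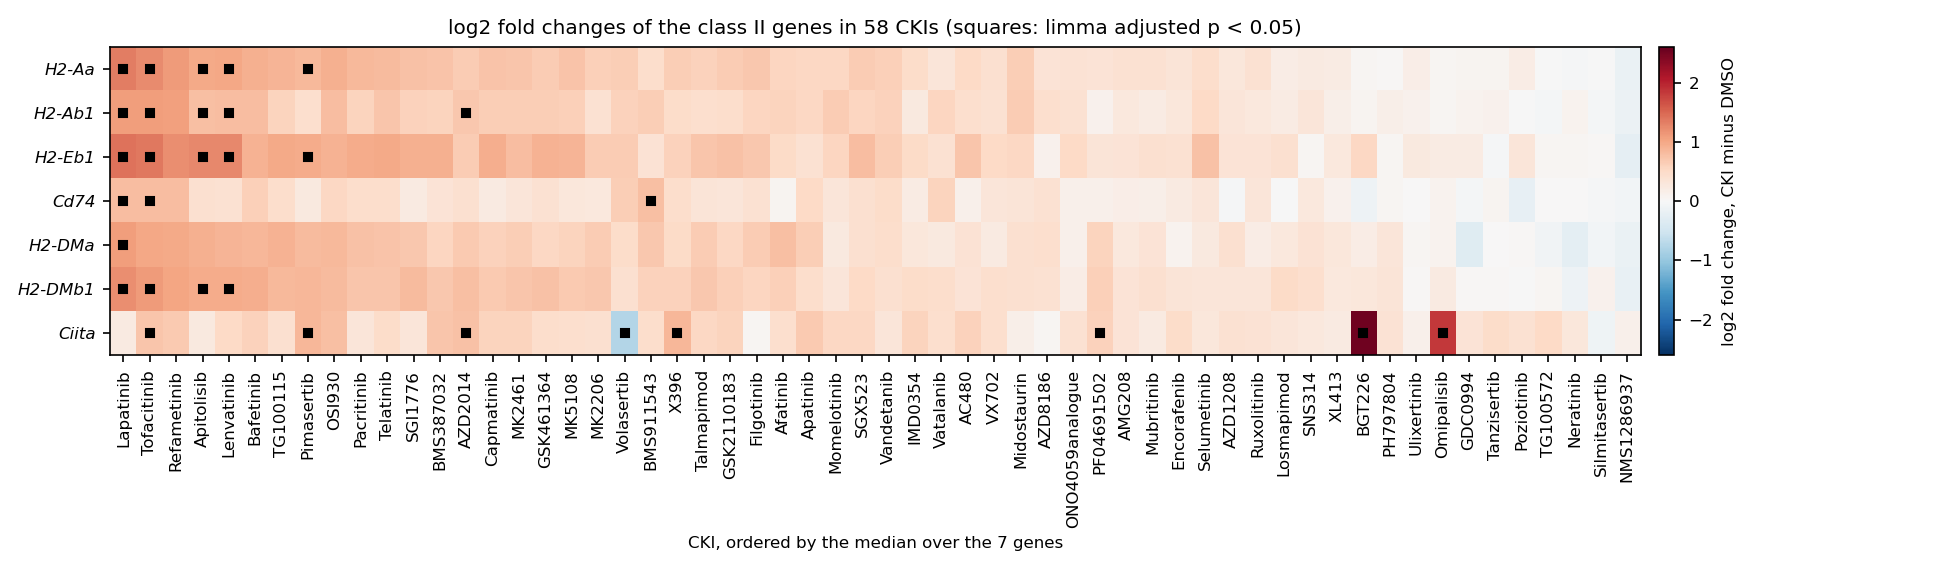
Log2 fold changes (CKI minus DMSO) of the 7 genes in the 58 CKIs, with the CKIs ordered from left to right by the median over the genes and squares on the pairs with a limma adjusted p under 0.05. Most fields are red, 379 of 406, and the strongest are *Ciita* with BGT226 (2.52) and Omipalisib (1.84), in which the other genes are pale.

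The calls fell on 12 CKIs, and 5 of them raised 3 or more members. The kinases named here are those by which the CKIs are known. The paper set each dose by the affinity for an intended target, measured as binding of kinases in cell lysates. This target was JAK1 for Apitolisib and RIPK2 for Lenvatinib. In that assay the paper reports no JAK kinase bound by Tofacitinib or BMS911543. Lapatinib, an EGFR family inhibitor, raised 6 of the 7, all but *Ciita*, where 18.1% of all genes tested were higher. Tofacitinib, a JAK inhibitor, also raised 6, all but *H2-DMa*, against 9.02% of all genes. Apitolisib, a PI3K and mTOR inhibitor, and Lenvatinib, an inhibitor of VEGF receptors, each raised *H2-Aa*, *H2-Ab1*, *H2-Eb1* and *H2-DMb1*, 4 of 7, against 12.7% and 11.4% of all genes. Pimasertib, a MEK inhibitor, raised *H2-Aa*, *H2-Eb1* and *Ciita*, 3 of 7, against 16% of all genes. AZD2014, an mTOR inhibitor, raised *H2-Ab1* and *Ciita* against 6.06% of all genes. The other 6 CKIs changed 1 member each. BMS911543, a JAK inhibitor, raised *Cd74* (0.472% of all genes were higher), and *Ciita* was raised by BGT226 (24.1%), Omipalisib (17.5%) and PF04691502 (8.86%), which inhibit PI3K and mTOR, and by X396, an ALK inhibitor (0.204%). *Ciita* was lowered by Volasertib, an inhibitor of a Polo-like kinase, where 1.34% of all genes were lower.

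The log2 fold changes of all genes were not centred on 0. Their median over the 12714 genes was 0.08 in the median CKI, ranged from −0.04 to 0.21, and exceeded 0.1 in size in 21 of the 58 CKIs. Rescaling the libraries with median-of-ratios factors brought it to between −0.02 and 0.02. Fold changes relative to this median are therefore added below. Counted in this way, the number of the 58 CKIs above DMSO ran from 47 for *Cd74* to 56 for *Ciita*. Over all 58 CKIs, higher calls were 60.4% of all calls on the values as deposited and 40.8% after the rescaling, while the members had 30 higher and 1 lower calls as deposited and 20 and 1 after it.

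*H2-Aa* encodes the alpha chain of the I-A molecule. Its DMSO samples ranged from 389 to 1209 with a median of 685.5. With Lapatinib it was at 1697, 1502 and 1812. With Tofacitinib it was at 1623, 1834 and 1265. All 6 of these samples lay above the highest DMSO sample, so that neither CKI overlapped with DMSO. With Lenvatinib the values were 1565, 1015 and 1484, of which replicate 2 lay within the DMSO range. The log2 fold change was 1.33 (SE 0.31, adjusted p = 0.0058) with Lapatinib, or 1.22 relative to the median of all genes. It was 1.23 (SE 0.31, adjusted p = 0.013) with Tofacitinib, or 1.06 relative to the median, and 1.01 (SE 0.31, adjusted p = 0.0328) with Lenvatinib, or 0.83 relative to the median. Apitolisib and Pimasertib raised it by less, with log2 fold changes of 0.99 and 0.84. Without replicate 2 of DMSO set 2, only the call of Lapatinib remained (1.18, adjusted p = 0.0296), and that of Tofacitinib was lost (1.08, adjusted p = 0.0545). The call of Lapatinib ended without replicate 2 or replicate 3 of all conditions and without replicate 1 of the CKIs.

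*H2-Ab1*, the beta chain of I-A, was called with 4 of the 5 CKIs of *H2-Aa*, with AZD2014 in place of Pimasertib. The DMSO samples ranged from 700 to 1530 with a median of 1027. It was at 2051, 2017 and 2384 with Lapatinib, at 1982, 2142 and 2298 with Tofacitinib and at 1834, 1834 and 1671 with Lenvatinib. All 9 of these samples were above all 6 DMSO samples. The log2 fold changes were 1.08 (SE 0.27, adjusted p = 0.00696) with Lapatinib, 1.08 (SE 0.27, adjusted p = 0.0121) with Tofacitinib and 0.81 (SE 0.27, adjusted p = 0.0386) with Lenvatinib. Relative to the median of all genes they were 0.97, 0.91 and 0.63. Apitolisib and AZD2014 also raised it, by 0.78 and 0.71. The calls of Lapatinib (adjusted p = 0.0318) and Tofacitinib (adjusted p = 0.0479) held without replicate 2 of DMSO set 2, and the other 3 were lost. Both ended without replicate 2 of all conditions (adjusted p = 0.122 and 0.336), without replicate 3 of all conditions and without replicate 1 of the CKIs, and that of Tofacitinib also ended with DMSO set 2 alone (adjusted p = 0.0643) and with only the groups compared (adjusted p = 0.0689). With Pimasertib its log2 fold change was 0.44 (adjusted p = 0.228).

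*H2-Eb1* encodes the beta chain of I-E and changed most among the class II chains. Its DMSO samples ranged from 395 to 846 with a median of 515.5. It was at 1347, 1390 and 1640 with Lapatinib, at 1359, 1683 and 1238 with Tofacitinib and at 1179, 1338 and 1390 with Apitolisib. Each of these CKIs was again clear of the DMSO range. The log2 fold change was 1.41 (SE 0.32, adjusted p = 0.00489) with Lapatinib, 1.38 (SE 0.32, adjusted p = 0.00789) with Tofacitinib and 1.25 (SE 0.32, adjusted p = 0.0128) with Apitolisib, or 1.30, 1.20 and 1.14 relative to the median of all genes. The 3 Lenvatinib samples were close together at 1282, 1285 and 1319, and the log2 fold change there was also 1.25. With Pimasertib it was 0.96. Here, too, the calls of Lapatinib (adjusted p = 0.0237) and Tofacitinib (adjusted p = 0.0294) held without replicate 2 of DMSO set 2, and those of Apitolisib (1.16, adjusted p = 0.0591), Lenvatinib and Pimasertib were lost. Those of Lapatinib and Tofacitinib ended without replicate 2 of all conditions (adjusted p = 0.112 and 0.336) and without replicate 1 of the CKIs (adjusted p = 0.0573 and 0.0716), and that of Tofacitinib also ended with DMSO set 2 alone (adjusted p = 0.0643) and with only the groups compared (adjusted p = 0.0641). *H2-Ea*, the alpha chain of I-E, was listed at 0 in all but 2 of the 180 samples. C57BL mice carry an H2 haplotype in which this gene is not transcribed.

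*Cd74*, the invariant chain, moved less. Its DMSO samples ranged from 2284 to 5746 with a median of 3436. It was at 7499, 5107 and 6578 with Lapatinib, at 6717, 6292 and 5848 with Tofacitinib and at 6726, 6135 and 5878 with BMS911543. The Tofacitinib and BMS911543 samples were all above the DMSO range, and replicate 2 of Lapatinib was within it. The log2 fold changes were 0.81 (SE 0.25, adjusted p = 0.0171) with Lapatinib, 0.80 (SE 0.25, adjusted p = 0.0354) with Tofacitinib and 0.79 (SE 0.25, adjusted p = 0.0296) with BMS911543, or 0.70, 0.63 and 0.79 relative to the median of all genes. None of these calls held without replicate 2 of DMSO set 2, where the adjusted p was 0.071 with Lapatinib, 0.125 with Tofacitinib and 0.134 with BMS911543. All 3 were also lost without a filter and with DMSO set 1 alone, and that of Tofacitinib after the median-of-ratios rescaling (adjusted p = 0.107). The 3 calls ended as well with only the groups compared, without replicate 2 or replicate 3 of all conditions, and without replicate 1 or replicate 3 of the CKIs. BMS911543 is the only CKI that raised *Cd74* and none of the class II chains. Its log2 fold change for the 7 members had a median of 0.60.

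The DM genes had the widest spread between samples of a condition. *H2-DMb1* ranged from 133 to 438 with DMSO (median 199). It was at 550, 477 and 545 with Lapatinib, all above the DMSO range, and at 554, 555 and 376 with Tofacitinib, of which replicate 3 was within it. The log2 fold change was 1.21 (SE 0.34, adjusted p = 0.0105) with Lapatinib, 1.10 (SE 0.34, adjusted p = 0.032) with Tofacitinib and 0.97 (SE 0.34, adjusted p = 0.0465) with Lenvatinib, or 1.09, 0.93 and 0.79 relative to the median of all genes, and Apitolisib raised it by 0.96. Of these calls only that of Lapatinib held without replicate 2 of DMSO set 2 (1.05, adjusted p = 0.0438), and it ended without replicate 2 or replicate 3 of all conditions and without replicate 1 of the CKIs. *H2-DMa* ranged from 113 to 377 with DMSO (median 158.5) and passed the threshold only with Lapatinib, at 418, 334 and 429. Its log2 fold change there was 1.08 (SE 0.36, adjusted p = 0.0219), or 0.97 relative to the median, and replicate 2 lay within the DMSO range. This call was lost without replicate 2 of DMSO set 2 (0.94, adjusted p = 0.0751), with DMSO set 1 alone (adjusted p = 0.06), with set 2 alone (adjusted p = 0.073) and without a filter (adjusted p = 0.066). It also ended without replicate 2 or replicate 3 of all conditions, and without replicate 1, 2 or 3 of the CKIs. *H2-DMb1* has a near copy, *H2-DMb2*, at its side, and since 1 alignment was kept for each read, reads that fit both could be assigned to either and the values of both are uncertain.

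Refametinib, another MEK inhibitor, ranked among the first 5 conditions in each of the 6 genes other than *Ciita* without passing the threshold in any. *H2-Eb1* was at 1368, 896 and 1631 there and had a log2 fold change of 1.21 (SE 0.32). No gene of the 12714 passed in limma with this CKI, while 3208 had an unadjusted p under 0.05.

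In bulk RNA, fewer cells of a type and less RNA per cell cannot be told apart, and this holds for every change described here.

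**Figure D2:**
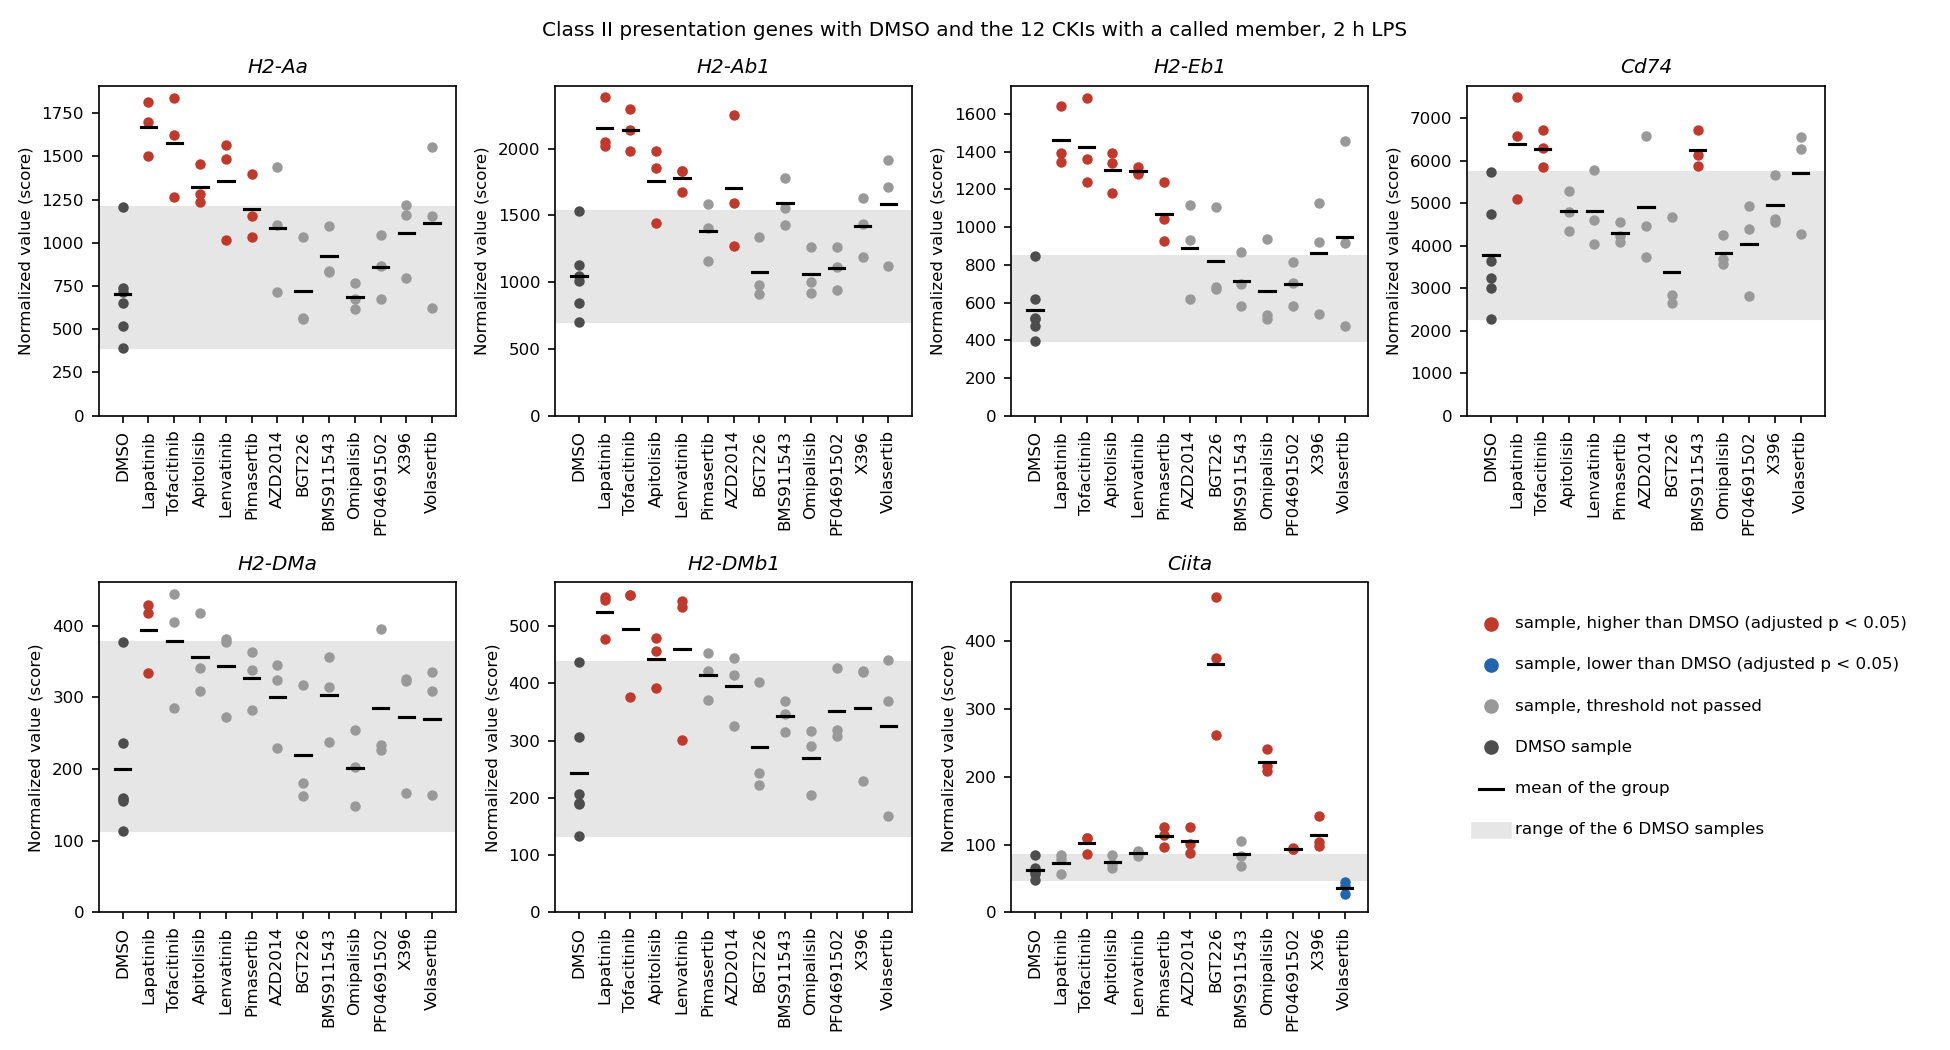
Normalized values of the 7 genes in each sample with DMSO (6 samples) and with the 12 CKIs that changed at least 1 member (3 samples each), with the group means as bars and the DMSO range shaded. Lapatinib and Tofacitinib lie highest in the panels of the class II chains, while in that of *Ciita* BGT226 (261 to 465) and Omipalisib (208 to 241) stand apart and Volasertib (27 to 44) lies below the DMSO samples (47 to 84).

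*Ciita* gave the largest changes, and in other CKIs. It was at 59, 84 and 57 in DMSO set 1 and at 61, 47 and 65 in set 2. With BGT226 it was at 375, 261 and 465, and with Omipalisib at 208, 241 and 216. The lowest of these 6 samples was more than 2-fold above the highest DMSO sample. The log2 fold change was 2.52 (SE 0.21, adjusted p = 1.21e-20) with BGT226 and 1.84 (SE 0.21, adjusted p = 7.93e-13) with Omipalisib, or 2.31 and 1.72 relative to the median of all genes. These were the only 2 of the 31 calls that passed under all 14 alternative settings and all 12 ways of leaving out replicates, with log2 fold changes from 2.09 to 2.77 and from 1.39 to 1.93.

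The class II genes did not pass the threshold in either CKI. With BGT226 the log2 fold change was 0.06 for *H2-Aa* (SE 0.31), 0.07 for *H2-Ab1* (SE 0.27) and −0.14 for *Cd74* (SE 0.25), and with Omipalisib it was 0.05, 0.05 and 0.09. In order of *Cd74*, BGT226 was 58th of the 59 conditions. *H2-Eb1* was at 1104, 680 and 673 with BGT226, and its log2 fold change was 0.55 (SE 0.32, limma adjusted p = 0.192). RNA was taken 3 h after the CKI was added, and later times were not analysed here.

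Among the other CKIs that raised *Ciita*, X396 had values of 103, 142 and 98, a log2 fold change of 0.87 (SE 0.21, adjusted p = 0.0191) and 0.81 relative to the median of all genes. Pimasertib (0.86), AZD2014 (0.75), Tofacitinib (0.71) and PF04691502 (0.61) followed, and in all 5 every sample lay above the highest DMSO sample, 84. This held for 13 of the CKIs. Among them were OSI930 (0.78, limma adjusted p = 0.127) and BMS387032 (0.73, limma adjusted p = 0.119), which did not pass. When single DMSO samples were left out, the calls of X396, Tofacitinib and PF04691502 were lost without replicate 2 of set 2, that of PF04691502 also without replicate 3 of set 1, and those of Pimasertib and AZD2014 in no case. Without replicate 3 of all conditions the calls of Pimasertib (adjusted p = 0.0847), AZD2014 (adjusted p = 0.107), Tofacitinib and PF04691502 ended. That of AZD2014 also ended with DMSO set 1 alone (adjusted p = 0.0583) and without replicate 3 of the CKIs. Those of X396 (adjusted p = 0.26), Tofacitinib and PF04691502 ended without replicate 2 of all conditions. That of X396 also ended with DMSO set 1 alone (adjusted p = 0.204) and with only the groups compared (adjusted p = 0.411).

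Volasertib lowered *Ciita* to 44, 38 and 27, all below the lowest DMSO sample, 47. The log2 fold change was −0.76 (SE 0.21, adjusted p = 0.0284), or −0.78 relative to the median of all genes. It did not pass without replicate 2 of DMSO set 1, which was the highest of the DMSO samples in this gene (−0.67, adjusted p = 0.091), nor without replicate 3 of DMSO set 2 (adjusted p = 0.0504). Without replicate 3 of the CKIs, which was the lowest with Volasertib, it was −0.57 (adjusted p = 0.444), and the call held in 5 of the 12 ways of leaving out replicates. Against the mean of the other CKIs in place of DMSO, a reference added once the data had been seen, it was −1.26 (adjusted p = 2.97e-08). With that reference 3 of the 31 calls of the members passed. The log2 fold changes of the class II genes with Volasertib were above 0, and the median over the 7 members was 0.61.

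The 6 class II genes moved together and apart from *Ciita*. Over the 59 means of the conditions, the Spearman correlation between these 6 genes was 0.67 to 0.95 in their 15 pairs, with a median of 0.82, and that between *Ciita* and each of them was 0.20 to 0.38. Over the deviations of the 180 samples from the means of their conditions, the values were 0.67 to 0.94 and 0.09 to 0.29. The points share their libraries and scaling, and these values are a description.

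The 6 genes also moved with the share of mitochondrial transcripts. With DMSO this share was 1.15 ± 0.438% (SD, n = 6). It was 3.66 ± 0.552% with Pimasertib (n = 3), the highest of all conditions, 2.93 ± 1.31% with Apitolisib, 2.77 ± 0.845% with Lenvatinib, 2.76 ± 0.9% with Lapatinib, 2.64 ± 1.33% with Tofacitinib and 2.56 ± 1.68% with Refametinib. All 5 CKIs that raised 3 or more members were among the 7 conditions with the highest shares. The other 2 were Pacritinib (2.83 ± 1.73%), which changed no member, and PF04691502 (2.69 ± 1.53%), which was 37th of 59 in the mean of the 6 genes and raised none of them. Over the 59 means, the mean log2 value of the 6 genes had a Spearman correlation of 0.74 with the mitochondrial share and 0.67 with the total of the normalized values, against 0.22 and 0.33 for *Ciita*. Over the 180 deviations, the correlations were 0.63 and 0.81 for the 6 genes and 0.01 and 0.05 for *Ciita*.

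With the mitochondrial share as a covariate in limma, a setting chosen after seeing the data, higher member calls fell from 30 to 10. None of the members was then called with Lapatinib, Tofacitinib, Apitolisib or Lenvatinib, and the log2 fold change of *H2-Eb1* with Lapatinib was 0.93 (SE 0.27, adjusted p = 0.097) in place of 1.41. With Pimasertib that of *H2-Aa* was 0.00 (SE 0.25) in place of 0.84, while that of *Ciita* remained at 0.85 (adjusted p = 0.0148). The *Ciita* calls with Tofacitinib (0.71, adjusted p = 0.0704) and PF04691502 (0.60, adjusted p = 0.0743) were lost with log2 fold changes that hardly differed from 0.71 and 0.61. The *Ciita* calls with BGT226, Omipalisib, X396, AZD2014 and Volasertib and the *Cd74* call with BMS911543 passed as well. AZD2014, with a mitochondrial share of 1.16 ± 0.327% (SD, n = 3) like that of DMSO, had 5 called members in this fit, *Ciita*, *H2-Aa*, *H2-Ab1*, *H2-DMa* and *H2-DMb1*, with log2 fold changes between 0.65 and 0.78. Its *H2-Ab1* values were 1595, 1267 and 2253, of which replicate 2 lay within the DMSO range. Whether the share and the class II genes changed independently was not tested.

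**Figure D3:**
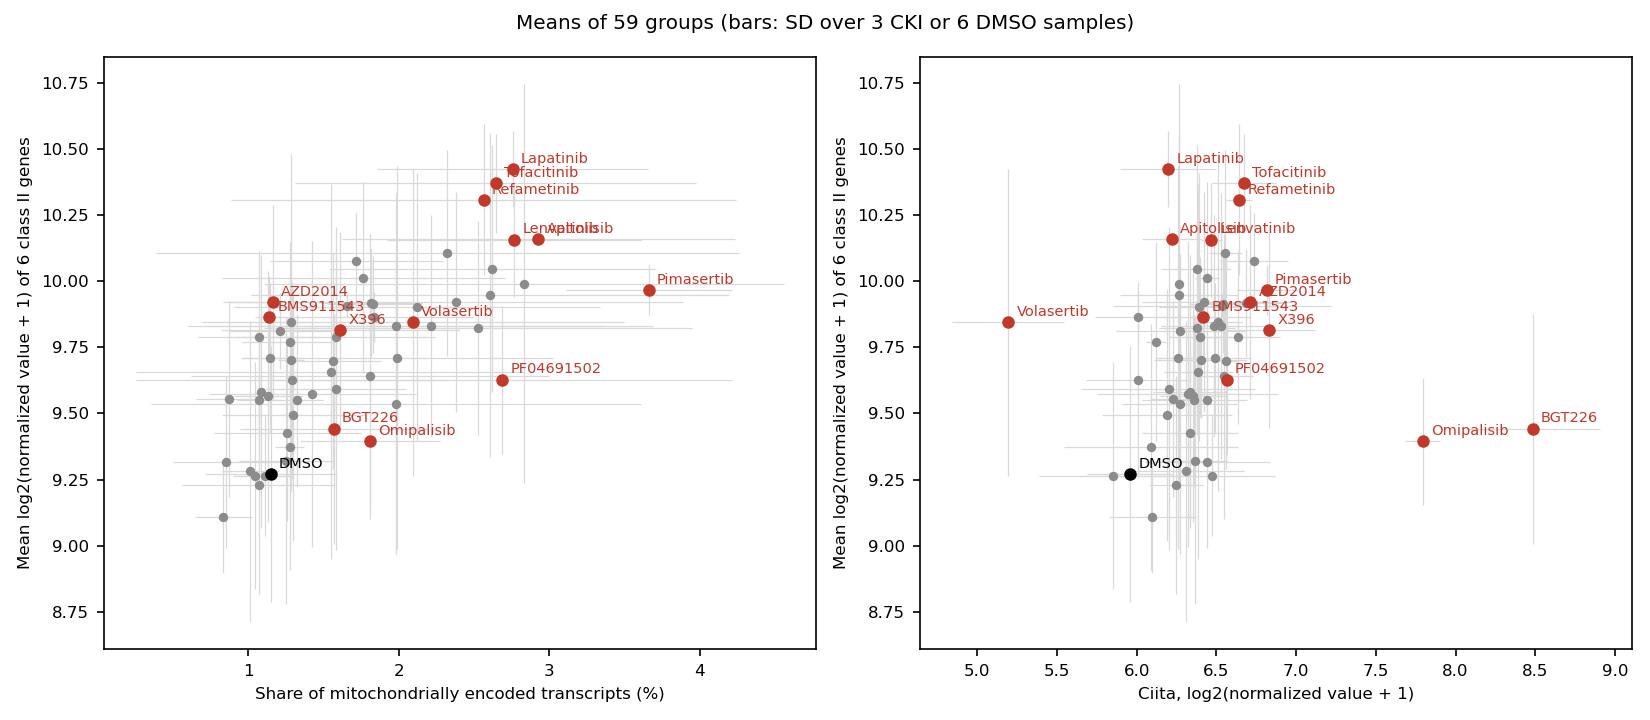
Means of the 59 conditions for 6 class II genes (mean log2 value of *H2-Aa*, *H2-Ab1*, *H2-Eb1*, *Cd74*, *H2-DMa* and *H2-DMb1*) against the share of mitochondrial transcripts in percent (left) and against the log2 value of *Ciita* (right), with the SD over 3 CKI or 6 DMSO samples as bars. Lapatinib, Tofacitinib and Refametinib are at the upper right on the left side, while BGT226 and Omipalisib lie far to the right in *Ciita* and low in the 6 genes.

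Markers of other cells were compared with the same conditions. The summed macrophage markers had a Spearman correlation of 0.87 with the 6 class II genes over the 59 means, and the neutrophil markers 0.81, the B cell markers 0.76, the dendritic cell markers 0.63 and the T cell markers 0.35. The macrophage sum was 198188 to 240418 in the Lapatinib samples, against 99709 to 216444 with DMSO, and the neutrophil sum was 742 to 974, against 185 to 526. Over all genes, 2.52% of the pairs were higher and 1.65% lower, and the shares of the lists of markers are given beside these. Of the neutrophil genes, which had 4 higher and 5 lower calls of 232 pairs (1.72% and 2.16%), *S100a8* and *S100a9* were raised by Lapatinib and Pimasertib, *Elane* fell with Omipalisib (−3.69), BGT226 (−1.86) and PF04691502 (−1.57), and *Mpo* fell with Omipalisib (−2.18) and BGT226 (−2.12). With Lapatinib, *Elane* (−0.49, adjusted p = 0.344) and *Mpo* (0.40, adjusted p = 0.548) did not pass in limma. The dendritic cell genes had 6 higher and 3 lower calls of 174 pairs (3.45% and 1.72%). *Ccr7*, a chemokine receptor of maturing dendritic cells, was raised by BGT226 (1.37), Omipalisib (1.33), AZD2014 (1.19), Tofacitinib (1.08) and PF04691502 (1.04), which are 5 of the 7 CKIs that raised *Ciita*. *Xcr1* rose with Omipalisib (1.11) and fell with AZD2014 (−0.69). The macrophage genes had 13 higher and 2 lower calls of 464 pairs (2.80% and 0.431%). *Cd68* was raised by Lapatinib, Apitolisib, Pimasertib and Lenvatinib, *Fcgr1* by Lapatinib and Pimasertib, *Cd14* by Lapatinib, Tofacitinib and Omipalisib, and *Csf1r* by AZD2014 (0.21) and BGT226 (0.16). *Mertk* rose with Omipalisib (1.24) and BGT226 (1.22) and fell with Tofacitinib (−0.65), and *Adgre1*, *Itgam* and *Lyz2* passed with none of the 58 CKIs. The neutrophil marker *Ly6g*, as well as *Pax5*, *Cd3e* and *Cd3d*, was at or near 0 throughout, with maxima of 5, 1, 2 and 2. The part of these markers in the class II changes was not tested.

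Taking all CKIs as 1 group, in a contrast chosen after seeing the data, the mean of the 58 CKIs was above DMSO in all 7 genes. *Ciita* (log2 fold change 0.47, SE 0.12, adjusted p = 0.0156) and *H2-Eb1* (0.59, SE 0.19, adjusted p = 0.0424) passed the threshold in limma, 2 of 7, where 4.65% of all genes tested were higher. *H2-Aa* (0.52, adjusted p = 0.0619), *H2-Ab1* (0.45, adjusted p = 0.0632), *H2-DMb1* (0.50, adjusted p = 0.094), *H2-DMa* (0.45, adjusted p = 0.15) and *Cd74* (0.29, adjusted p = 0.191) did not. Against either DMSO set alone none of the 7 passed, and without replicate 2 of DMSO set 2 the number of genes that were higher fell from 591 to 9 over all genes tested. Whether the members differed among the 59 conditions at all was tested by limma's F test. *Ciita* (adjusted p = 3.88e-16), *H2-Eb1* (0.000734), *H2-Aa* (0.00789) and *H2-Ab1* (0.00817) passed, 4 of 7, where 48.6% of all genes did, and *Cd74* (0.111), *H2-DMa* (0.138) and *H2-DMb1* (0.141) did not. With the replicate number as a block, a pairing that the labels do not state, all 7 passed, as did 10011 of the 12714 genes.

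Genes with a pattern like that of the surface class II genes were sought among the other genes tested. The 5 highest Spearman correlations over the 59 means with the mean log2 value of *H2-Aa*, *H2-Ab1*, *H2-Eb1* and *Cd74* were those of *Ngp* (0.88), *Psmc4* (0.88), *Gm6851* (0.88), *Psmc5* (0.87) and *G6pdx* (0.87), and 188 of 12707 genes exceeded 0.8. Of the remaining members, *H2-DMb1* reached 0.89, *H2-DMa* 0.87 and *Ciita* 0.29. The genes most like *Ciita* were *Klc4* (0.61), *Rgl2* (0.60) and *Dtx4* (0.60), and none exceeded 0.8.

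Of the 3 remaining class II, DM and DO chains that passed the filter, *H2-DMb2* was raised by 6 CKIs, with log2 fold changes of 1.39 (SE 0.33, adjusted p = 0.00614) with Lapatinib and 1.23 (SE 0.33, adjusted p = 0.0187) with Tofacitinib. *H2-Ob*, a chain of the DM antagonist DO, was raised by 3 CKIs, among them Apitolisib (1.04) and Pimasertib (0.92). *H2-Oa*, the other chain of DO, was raised by Apitolisib (1.48) and AZD2014 (1.24). *H2-Oa* and *H2-Ob* did not pass with Lapatinib or Tofacitinib, and the Spearman correlation of *H2-Ob* with the surface class II genes over the 59 means was 0.48, against 0.84 for *H2-DMb2*. These 11 calls of 174 pairs were 6.32%, against 2.52% over all genes, none of them was lower, and the median log2 fold change was 0.53. *H2-Oa* and *H2-Ob* are close to the filter, with means of 10.5 and 16.2, so their fold changes carry a large counting error.

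Of 8 genes of lysosomal processing, 10 of 464 pairs were higher (2.16%) and 3 lower (0.647%), neither above the shares over all genes (2.52% and 1.65%), with a median log2 fold change of 0.04. *Ctss*, the protease that takes the invariant chain to its last fragment, rose with Lapatinib (1.35, SE 0.44, adjusted p = 0.0211) and Pimasertib (1.23). *Ctsl*, another protease of the pathway, rose with Lapatinib (0.76), Apitolisib (0.86), Lenvatinib (0.73), Pimasertib (0.78) and Omipalisib (0.74). *Ifi30*, a thiol reductase that opens disulfide bonds of antigens, rose with Lapatinib (1.17), Apitolisib (1.17) and Pimasertib (1.24). *Ctss*, *Ctsl* and *Ifi30* share the spread of the class II genes in the DMSO samples, where *Ctss* was at 15659 in replicate 1 and 4442 in replicate 2 of set 2. *Sppl2a*, which removes the membrane stub of the invariant chain, fell with Apitolisib (−0.37) and BGT226 (−0.32), and *Ctsd* fell with BGT226 (−0.12). *Ctsb*, *Ctsh* and *Lgmn* passed with none of the 58 CKIs.

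The 3 genes of surface turnover that passed the filter gave 6 higher and 5 lower calls of 174 pairs (3.45% and 2.87%, against 2.52% and 1.65% over all genes), 9 of them those of *Cd83*. *Cd83*, which stabilizes class II at the surface by opposing the ubiquitin ligase MARCH1, rose with BGT226 (1.25, SE 0.11, adjusted p = 1.55e-19), Omipalisib (1.04, SE 0.11, adjusted p = 8.92e-15), AZD2014 (0.65) and PF04691502 (0.69), and fell with 5 CKIs, among them Pimasertib (−0.56), Volasertib (−0.36), Lenvatinib (−0.35) and Lapatinib (−0.29). *Marchf8* rose with BGT226 (0.74) and Pimasertib (0.59), and *Marchf1* passed in none of the 58 CKIs.

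Genes of the promoter complex gave 8 higher and 6 lower calls of 348 pairs (2.30% and 1.72%), close to the shares over all genes (2.52% and 1.65%). *Rfxank*, a subunit of RFX, rose with 6 CKIs, among them BGT226 (0.87, SE 0.15, adjusted p = 1.09e-06), Omipalisib (0.78), Tofacitinib (0.57), Apitolisib (0.47) and Pimasertib (0.47). *Nfyb* rose with Lenvatinib (0.47). *Creb1* fell with AZD2014 (−0.99) and PF04691502 (−0.71), as did *Nfya* (−0.58 and −0.49). *Rfx5* and *Nfyc* passed in none, and *Rfxap* did not pass the filter.

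The 12 genes upstream of *Ciita* gave 55 lower calls of 696 pairs (7.90%) and 8 higher (1.15%), against 1.65% lower and 2.52% higher over all genes, and had a median log2 fold change of −0.16. Of the lower calls 17 were those of *Irf8*, while *Irf4* had 3 higher and 1 lower, *Jak2* 1 higher and none lower, and *Usf1* none. *Irf8*, an interferon regulatory factor of the myeloid lineage, was lowered by 17 CKIs, among them 7 that changed a member. It was at 3680 to 7541 in the DMSO samples (median 4478), and its log2 fold change was −1.48 (SE 0.31, adjusted p = 0.000501) with Pimasertib, −1.46 (SE 0.31, adjusted p = 0.000102) with AZD2014 and −1.12 (SE 0.31, adjusted p = 0.00958) with Lapatinib. That of Apitolisib was −1.36, that of BMS911543 −1.35, that of Tofacitinib −1.32 and that of Lenvatinib −0.93. *Socs1*, an inhibitor of JAK signalling, was lowered by AZD2014 (−4.55, SE 0.55, adjusted p = 4.24e-11), BMS911543 (−3.82, SE 0.55, adjusted p = 6.56e-08), Apitolisib (−1.95) and Lapatinib (−1.53). The chain *Ifngr2* of the interferon-gamma receptor was lowered by Apitolisib, AZD2014, BMS911543, Lapatinib and Pimasertib, and *Jak1* by AZD2014 and Pimasertib. *Ifngr1* rose with AZD2014 (0.41), BGT226 (0.34) and PF04691502 (0.21) and fell with Volasertib (−0.45), Lenvatinib (−0.26), Pimasertib (−0.22), BMS911543 (−0.22) and Lapatinib (−0.19).

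With BGT226, where *Ciita* rose most, *Irf1* (0.58, SE 0.19, adjusted p = 0.0105) and *Irf4* (1.15, SE 0.44, adjusted p = 0.0328) rose and *Spi1*, which encodes the myeloid factor PU.1, fell (−0.48). With Omipalisib *Jak2* rose (0.75) and *Spi1* fell (−0.51). *Spi1* fell with AZD2014 as well (−0.71). *Irf4* also rose with PF04691502 (1.82) and AZD2014 (1.34). *Irf1* fell with Apitolisib (−0.62) and Pimasertib (−0.74). *Irf8* did not pass with BGT226 (−0.46, SE 0.31) or Omipalisib (0.00, SE 0.31).

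The class II genes of chromosome 17 are not one block. Between the start of *H2-DMa* and the end of *H2-Eb1* the table lists 12 genes, of which 5 are members and 6 of the other 7 passed the filter. *Psmb8* and *Psmb9*, subunits of the immunoproteasome, and *Tap1* and *Tap2*, the peptide transporter of the class I pathway, lie between *H2-DMb1* and *H2-Ob*. *Tap1* was lowered by 5 CKIs, among them Tofacitinib (−0.75, SE 0.21, adjusted p = 0.0236), Apitolisib (−0.66) and Pimasertib (−0.60). With Tofacitinib and Apitolisib, members on both sides of it rose. *Tap2* was lowered by 1 CKI, and *Psmb8* and *Psmb9* passed in none. Over the 59 means the Spearman correlation with the surface class II genes was −0.40 for *Tap1*, −0.10 for *Tap2*, −0.03 for *Psmb8* and 0.11 for *Psmb9*, against 0.84 for *H2-DMb2*.

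**Figure D4:**
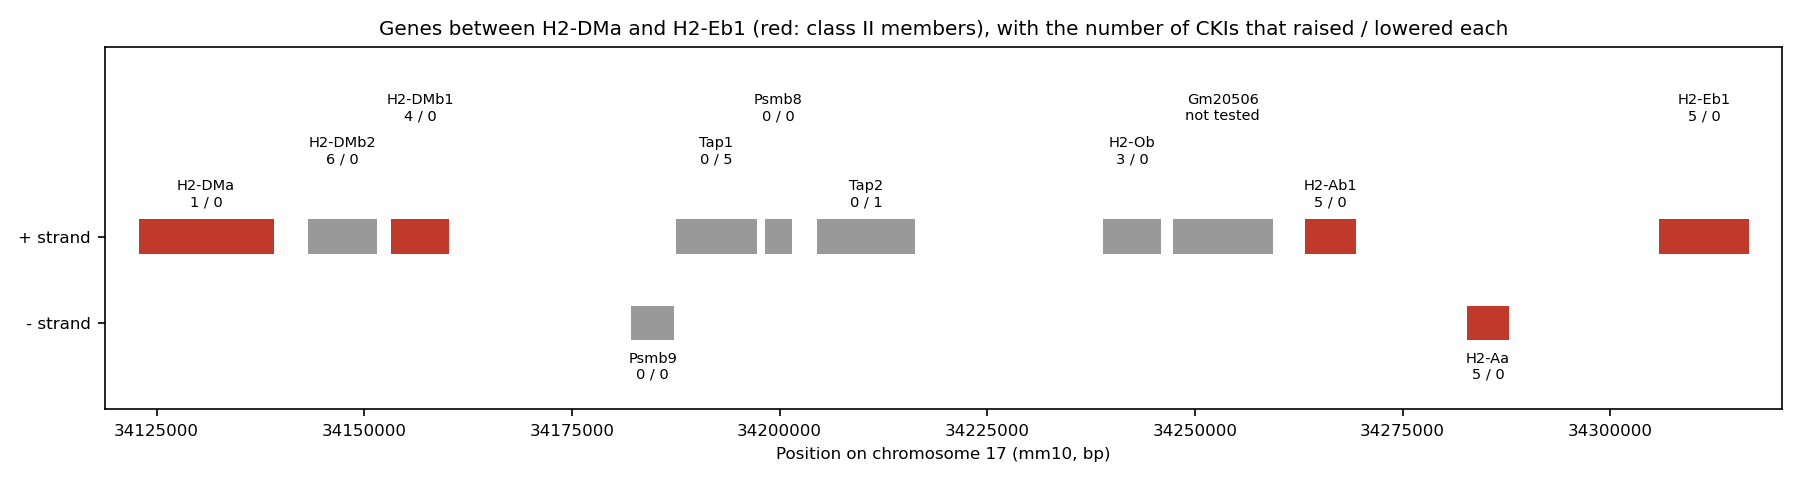
Genes of chromosome 17 between *H2-DMa* and *H2-Eb1* in mm10, to scale in base pairs, by strand, with the number of CKIs that raised and lowered each. The members and *H2-DMb2* were raised by 1 to 6 CKIs and lowered by none, while *Tap1* was raised by none and lowered by 5.

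Promoter sequences from RefSeq (GRCm38.p6) were available for 4 of the 7 members, *H2-Aa*, *H2-Eb1*, *H2-DMb1* and *H2-DMa*, and not for *H2-Ab1*, *Cd74* and *Ciita*. They cover 250 bases before and 50 after the start of the gene. They were searched on both strands for the letters TGATTGG, the core of the Y box that NF-Y binds, and CTNGNAACT, letters within the X box of RFX that were chosen after seeing these promoters. The first were found in 7.82% and the second in 4.10% of 32851 promoters of the same length, and both in 115 of them (0.350%), without regard to order or strand. *H2-Aa*, *H2-Eb1* and *H2-DMb1* held both 1 time on the strand of the gene, with the X letters first and 25, 24 and 25 bases between the elements. The stretches run from 10 bases before the X letters to 10 after the Y letters, with both in capitals, at chr17:34287857-34287917 on the minus strand for *H2-Aa*, chr17:34305763-34305822 on the plus strand for *H2-Eb1* and chr17:34153084-34153144 on the plus strand for *H2-DMb1*:
H2-Aa: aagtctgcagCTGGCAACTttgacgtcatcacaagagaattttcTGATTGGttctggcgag
H2-Eb1: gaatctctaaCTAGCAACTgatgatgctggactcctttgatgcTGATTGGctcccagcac
H2-DMb1: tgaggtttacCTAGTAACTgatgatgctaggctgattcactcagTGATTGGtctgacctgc
Neither motif was in the windows of the 2 starts of *H2-DMa*, whose Spearman correlation over the 59 means was 0.94 with *H2-DMb1* and 0.90 with *H2-Aa*. A match of letters is a description, not a binding site.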

How the data were processed

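RNA of 180 samples was sequenced after the SMART-seq2 protocol. The authors aligned reads to mm10 with TopHat2 2.1.1, with 1 alignment kept for each, and removed reads in blacklisted regions with bedtools 2.29.2. They then counted reads on exons of RefSeq genes and scaled samples on invariant genes. Their methods call the reads paired-end under sequencing and single-end under alignment. The deposited values are these scaled counts rounded to whole numbers, treated as a score. The depth per sample before scaling is not given, and low values carry a large counting error. All sample columns matched a label.

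Genes with a mean of at least 10 were tested on log2(value + 1) with limma 3.58.1 (R 4.3.3; moderated test with a variance trend, all 59 groups in 1 fit, 121 residual degrees of freedom, 2-sided), as planned for values that are not raw counts, and summarised with Python 3.11.15, pandas 2.3.3, NumPy 2.4.6 and matplotlib 3.10.9. The fit was tested on simulated data. The methods speak of independent biological replicates. For each member, every CKI that passed was named, with the 3 largest changes in full where more than 4 passed in a direction, and genes of a list were named where they passed in such a CKI. The alternatives were other pseudocounts (0.5 and 10), no filter or a filter at 50, median-of-ratios scaling, each DMSO set alone, no trend, pairs of groups alone, the replicate number as a block, with and without the mitochondrial share, and left-out replicates. The members and lists were chosen with earlier results of these data known.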

Additional observations from a re-analysis of the deposited data

How the results depend on the processing

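Of the 31 calls, *Ciita* with BGT226 and Omipalisib passed under all alternatives, and none changed sign. Higher member calls (30) were 15 without a filter, 11 with DMSO set 1 alone, 11 with set 2 alone and 11 with only the groups compared, and lower calls (1) were 0 in each of these. Median-of-ratios scaling gave 20 higher and 1 lower, while the higher share of all calls of all genes went from 60.4% to 40.8%.

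Members higher in the mean of the CKIs (2) were 1 without a filter, 1 with ratios scaling and 0 with DMSO set 1 or 0 with set 2 alone. For Apitolisib (4) the counts were 1 without a filter, 2 with ratios scaling, 0 and 0 with set 1 or 2 alone and 1 with only the groups compared. For Lenvatinib (4) they were 1, 1, 0, 0 and 0, for Tofacitinib (6) 3, 3, 3, 0 and 0, and for Pimasertib (3) 1 without a filter and 1 with set 2 alone.

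Other alternatives were chosen after seeing the data. With the mitochondrial share as a covariate, higher calls were 10, the mean of the CKIs had 1, Pimasertib 1, and Apitolisib, Lapatinib, Lenvatinib and Tofacitinib 0. Against the mean of the other CKIs, higher calls were 2, and these 5 CKIs had 0. With no DMSO set 2 samples 1 and 2, higher calls were 19, the mean of the CKIs had 0, Apitolisib 2 and Lenvatinib 2.

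With a replicate block, higher calls were 60, members in the F test 7 in place of 4, those in the mean of the CKIs 5 and those with Pimasertib 5. With the block and the mitochondrial share, higher calls were 18, the mean of the CKIs had 1, Lapatinib 3, Pimasertib 1, and Apitolisib, Lenvatinib and Tofacitinib 0. Of 174 same-numbered pairs of a CKI, 144 had a correlation of deviations over 0.1, and 34 of 58 CKIs had this in all 3, so the numbers were not taken as pairs. In these pairs the median was 0.35, and 126 of 174 samples were closest to their own number, a hint from the data and not the design. The mean deviation of the 6 genes other than *Ciita* was 0.23 in replicate 1, −0.13 in replicate 2 and −0.10 in replicate 3, and that of the mitochondrial share was 0.50, −0.16 and −0.35 points.

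With replicates left out, higher calls were 4 to 54, lower calls 0 to 1, the F test 1 to 4, the mean of the CKIs 0 to 6, Apitolisib 0 to 5, Lapatinib 0 to 6, Lenvatinib 0 to 5, Pimasertib 0 to 5 and Tofacitinib 0 to 7. The cause was not tested. The depth before scaling is not given, so no detection limit was derived from it. Genes near the filter, such as the DO genes, carry the largest counting error.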
